A study of Mus musculus with 16 samples.

Results

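Cells sorted for a Pax7 reporter were compared with unsorted whole cultures of the same kind, in 6 of the 16 libraries of the series. These were 3 of GFP-positive cells (GFP+ MPC) and 3 of unsorted cells (bulk MPC). Every library was chosen by its label, and all genes were compared. The cells were primary skeletal muscle cells of the genotype Pax7-nGFP, in which a nuclear green fluorescent protein reports Pax7, and the parental lines came from male animals aged 16 weeks. Both groups grew as myoblasts for 2 to 3 passages. MPC medium then followed for 5 to 6 more, holding 5 µM forskolin, 5 µM RepSox, 3 µM of a compound labelled CHIR9901, 10% FBS, 10% serum replacement and 10 ng/ml basic FGF. The labels do not spell out MPC. For GFP+ MPC, 300000 to 500000 cells were sorted per library. Their RNA was extracted with another kit than that of bulk MPC, so the sort and the kit cannot be told apart. A second pair of groups served as a reference for the same sort in another culture, with 3 libraries each and the same genotype, sex and age. These were GFP+ myoblasts at passage 5 to 6 and bulk myoblasts at passage 3. Their medium is listed with 20% FBS and 10 ng/ml basic FGF, without serum replacement and without the 3 compounds. The 2 cultures thus differ in serum as well as in the compounds. In that pair, the sort and the passage cannot be told apart.

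Pax7 encodes a transcription factor of satellite cells, the stem cells of muscle, which need it for their upkeep. As the cells commit, Myod1 and then Myog take over, cells leave the cell cycle under inhibitors such as Cdkn1a, and they fuse into fibres that build sarcomeres. Forskolin raises cAMP by activating adenylyl cyclase, and RepSox blocks the TGF-beta type I receptor. Notch signalling, through ligands on neighbouring cells and effectors of the Hey family, holds satellite cells back from differentiation.

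Total estimated counts were 19567451, 21121172 and 22562423 in GFP+ MPC replicates 1 to 3 and 28195157, 24339383 and 20219282 in bulk MPC. The share of the 10 leading genes was 6.37% to 7.24% in GFP+ MPC and 12% to 14.1% in bulk MPC. Levels are CPM, counts relative to the library total, scaled by TMM, a normalization that corrects for such composition, or log2 fold changes of GFP+ MPC over bulk MPC ± standard error, with n = 3 per group. A gene passed at an adjusted p under 0.05 in edgeR's quasi-likelihood test across 15533 genes. The level of a library over a gene list is the median over the members of its log2 CPM minus the mean of its group's other 2 libraries. Bulk MPC replicate 2 stood apart, with levels of 2.66 over fibroblast markers, 2.24 over interstitial matrix genes and 1.19 over mitosis genes. Among sorted libraries, replicate 2 stood at 0.95 over thick filament genes, replicate 1 at 1.02 over immediate early genes and replicate 3 at -0.97 over hypoxia-linked genes.

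Pax7 and the genes of dividing cells were higher in the sorted cells, and the differentiation factor Myog, the cell cycle inhibitor Cdkn1a and the muscle genes Myh3 and Ckm were lower. Pax7 was at 593, 862 and 830 CPM in GFP+ MPC and at 66.1, 136 and 56.9 CPM in bulk MPC. The lowest sorted library was thus above the highest unsorted library. The log2 fold change of Pax7 was 3.14 ± 0.36 (edgeR adjusted p = 4.4e-06), a ratio of mean CPM of 8.81, and its gene is the one the sort reads out. Between the groups, 5118 genes rose (32.9% of those tested) and 5232 fell (33.7%), 66.6% in all, and 2933 rose (18.9%) and 3496 fell (22.5%) at least 2-fold. The shares of 32.9% and 33.7% are the reference for each count of list members below. With library size as the sole scaling, 7470 rose and 3522 fell, 68% of calls higher in place of 49.4%, since the median of all genes then moved from -0.005 to 0.46. All 3 sorted libraries lay above all 3 unsorted ones for 33.3% of genes and below them for 34.4%. A larger rise than that of Pax7 was measured for 222 genes (1.43%), of which 210 passed the test and 200 are protein-coding. That number was 354 without bulk MPC replicate 3.

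**Figure D1:**
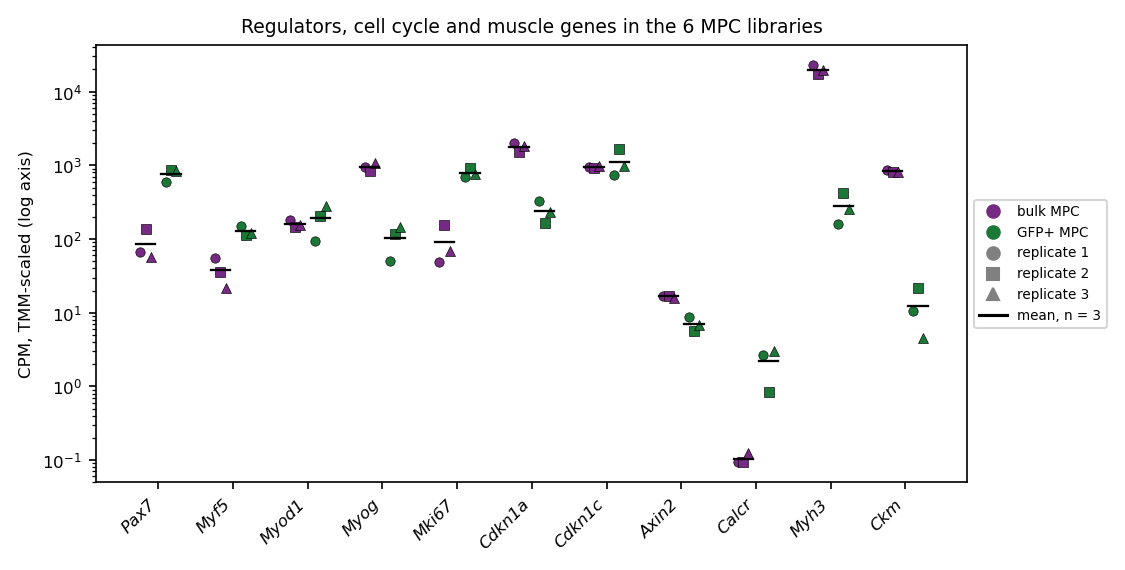
CPM on a log axis of 11 genes in each of the 6 MPC libraries, with bulk MPC in purple, GFP+ MPC in green, a marker shape for each replicate number and a bar at the mean of 3. The groups do not overlap for Pax7, Myf5, Myog, Mki67, Cdkn1a, Axin2, Calcr, Myh3 and Ckm, and they overlap for Myod1 and Cdkn1c.

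Of 30 tested markers of muscle stem cells, 16 rose and 5 fell, with a median log2 fold change of 1.65 against -0.005 over all genes. Calcr, the calcitonin receptor gene of quiescent satellite cells, was at 2.66, 0.838 and 3.06 CPM in GFP+ MPC and at 0.0929, 0.0953 and 0.123 CPM in bulk MPC (4.34 ± 0.67, adjusted p = 0.000271). Its level was low in every library, but the groups did not overlap. Cxcr4, a chemokine receptor gene, was at 80.5, 40.3 and 97.8 CPM against 4.97, 8.29 and 6.3 CPM (3.48 ± 0.36). Fgfr4, a receptor gene for fibroblast growth factors, was at 706, 813 and 562 CPM against 56.9, 128 and 86.8 CPM (2.94 ± 0.31). Members that fell include Itga7, an integrin subunit gene also present in muscle fibres, at 700, 771 and 689 CPM in sorted and 2075, 1863 and 2260 CPM in unsorted cells (-1.52 ± 0.15). The proteoglycan gene Sdc4 (-1.58 ± 0.24) and Asb5 (-2.39 ± 0.29) fell as well.

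The myogenic regulators split by stage. Myf5, active in satellite cells and early myoblasts, was at 148, 113 and 120 CPM in GFP+ MPC and 54.9, 35.6 and 21.9 CPM in bulk MPC (1.76 ± 0.27, adjusted p = 6.36e-05). Myod1, the factor of committed myoblasts, was at 94.5, 205 and 283 CPM against 179, 148 and 157 CPM and did not pass (0.27 ± 0.27, adjusted p = 0.393). GFP+ MPC replicate 1 was below all unsorted libraries and replicates 2 and 3 were above them, and without replicate 1 Myod1 was at 0.60 (adjusted p = 0.00294). Myog, which drives terminal differentiation, was at 50.1, 118 and 144 CPM against 950, 833 and 1060 CPM (-3.19 ± 0.46). Myf6, a regulator of late myogenesis, was at 3.11, 6.66 and 2.35 CPM against 271, 174 and 163 CPM (-5.65 ± 0.45). Mef2c, a transcription factor in muscle gene activation, fell by 5.20 ± 0.31. Across the list of 17 regulators, 8 rose and 7 fell (median 0.27, and -0.10 without GFP+ MPC replicate 3). Factors that restrain the myogenic proteins were among those that rose: Msc was at 3.16 ± 0.73, but at 1.77 without GFP+ MPC replicate 2 and 3.82 without bulk MPC replicate 2, and the inhibitor genes Id2 (2.60 ± 0.38) and Id3 (2.41 ± 0.32) passed too. Id1 (1.30 ± 0.41, adjusted p = 0.0126) did not pass without bulk MPC replicate 3 (adjusted p = 0.0558) or without GFP+ MPC replicate 3 (adjusted p = 0.0712). Per length, the order of mean TPM in sorted cells was Pax7 at 206 ± 45.3, Myod1 at 165 ± 85.9, Myf5 at 129 ± 14.4 and Myog at 116 ± 57.2, and these neighbours lay within about 1 SD of each other. In bulk MPC, Myog led at 731 ± 72.3 TPM, followed by Myod1 at 93.2 ± 3.24, Myf5 at 26.7 ± 10.6 and Pax7 at 16.5 ± 9.81, and here Myf5 and Pax7 lay within 1 SD of each other.

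Every tested gene of the contractile apparatus was lower in the sorted cells. The counts were 19 of 19 thick filament and M-band genes, 18 of 18 thin filament genes, 17 of 17 Z-disc genes, 19 of 19 genes of excitation-contraction coupling and 15 of 15 genes of muscle energy metabolism, with medians of -5.78, -5.07, -5.75, -4.43 and -4.93. Embryonic myosin Myh3 was at 158, 424 and 255 CPM in GFP+ MPC and 22738, 17617 and 19515 CPM in bulk MPC (-6.16 ± 0.35). GFP+ MPC replicate 2 was the highest sorted library, and the highest sorted value was far below the lowest unsorted one. Myosin genes of later stages fell as well, namely perinatal Myh8 (-6.82 ± 0.52) and adult fast Myh1 (-6.21 ± 0.46), Myh2 (-7.19 ± 0.91) and Myh4 (-7.25 ± 0.85). These myosin genes are near-identical over long stretches, so the division of reads among them is uncertain. Skeletal actin Acta1 was at 230, 467 and 201 CPM against 18568, 12945 and 15105 CPM (-5.70 ± 0.32). At the Z-disc, Actn2, the gene of a protein that anchors actin there, was at 67.8, 120 and 63.9 CPM against 6418, 4648 and 5939 CPM (-6.08 ± 0.31). Cacna1s, the voltage sensor of the muscle calcium channel, was at 11, 10.1 and 9.02 CPM against 821, 564 and 786 CPM (-6.17 ± 0.24). The creatine kinase gene Ckm was at 10.6, 21.7 and 4.47 CPM against 867, 813 and 813 CPM (-6.09 ± 0.55, and -6.79 without GFP+ MPC replicate 2). In these bulk RNA samples, fewer cells of a type and less RNA per cell cannot be told apart.

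What was left of this programme in the sorted cells was small but above 0. The median thick filament gene stood at 1.45%, 2.58% and 1.44% of its bulk MPC mean in GFP+ MPC replicates 1 to 3, and the median gene of excitation-contraction coupling at 3.08%, 5.61% and 2.56%. Summed over the thick filament list, GFP+ MPC held 1018 to 1955 CPM and bulk MPC 73310 to 97980 CPM. GFP+ MPC replicate 2 was the highest of its group for 15 of the 19 thick filament genes. The part of differentiated cells carried through the sort was not tested.

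Genes of fusion and of the neuromuscular synapse fell too. Of 12 fusion genes tested, 8 fell and 1 rose (median -1.81). The fusogen genes Mymk, at 18.1, 39.5 and 39.1 CPM against 740, 629 and 780 CPM (-4.47 ± 0.31), and Mymx (-3.73 ± 0.50, and -4.55 without GFP+ MPC replicate 2) were lower, as was the membrane repair gene Dysf (-5.73 ± 0.35). Kirrel, an adhesion gene, was the member that rose, at 138, 117 and 196 CPM against 11.6, 31.8 and 18 CPM (2.88 ± 0.38). Jam3, Myof and Adgrb1 did not pass. All 11 genes of the neuromuscular synapse fell (median -2.89). Subunit genes of the acetylcholine receptor are among them: Chrna1 was at 54.1, 73.3 and 111 CPM against 1539, 969 and 1225 CPM (-3.97 ± 0.26), and the fetal subunit gene Chrng at 23.6, 54.8 and 39.2 CPM against 1105, 874 and 1061 CPM (-4.69 ± 0.28). The adult subunit gene Chrne was at 0.18, 0.126 and 0 CPM against 24.1, 17.5 and 19.7 CPM (-7.62 ± 0.72, with -8.26 and -7.02 without GFP+ MPC replicates 1 and 3). Musk, the kinase that organises the synapse, fell by 2.89 ± 0.29.

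Muscle promoters are known for E-boxes, short sites bound by Myod1 and its relatives, and 3 promoters of genes that fell are shown, picked because they hold one, as the 250 bases before the start of transcription in RefSeq sequences of build GRCm38.p6. They lie at chr2:73580339-73580588, minus strand, for Chrna1, at chr1:87205561-87205810, plus strand, for Chrng, and at chr8:123894776-123895025, minus strand, for Acta1. Capitals mark the E-box CAGCTG, which reads the same on both strands.
Chrna1: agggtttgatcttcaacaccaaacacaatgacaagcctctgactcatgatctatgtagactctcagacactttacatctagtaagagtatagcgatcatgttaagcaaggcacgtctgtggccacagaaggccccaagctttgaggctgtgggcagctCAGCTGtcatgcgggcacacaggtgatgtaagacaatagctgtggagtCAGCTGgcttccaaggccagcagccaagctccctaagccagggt
Chrng: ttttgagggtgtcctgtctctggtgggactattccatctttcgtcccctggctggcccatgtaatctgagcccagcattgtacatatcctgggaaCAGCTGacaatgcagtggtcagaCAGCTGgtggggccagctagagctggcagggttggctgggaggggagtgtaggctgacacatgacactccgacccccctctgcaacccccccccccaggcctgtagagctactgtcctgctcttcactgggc
Acta1: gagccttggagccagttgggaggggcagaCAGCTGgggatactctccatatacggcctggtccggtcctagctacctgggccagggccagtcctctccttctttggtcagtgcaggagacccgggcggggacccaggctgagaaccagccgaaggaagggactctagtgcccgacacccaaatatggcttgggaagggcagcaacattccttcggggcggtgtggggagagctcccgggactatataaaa
Chrna1 and Chrng each carry the site at 2 positions and Acta1 at 1. In windows of 300 bases that run 50 bases past the start, 36 of 84 promoters (42.9%) of 66 genes of the contractile and muscle energy lists held CAGCTG, against 16.1% of 14546 promoters of tested genes and 16.3% of all 32851. The MEF2 motif was searched on either strand in a loose form, with any base allowed at its middle positions. This loose form was in 13.1% of the same 84 promoters and in 3.69% of all. These are not shares of strict MEF2 sites, which were not searched. A match is a description and does not show that a factor binds there.

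Genes of the cell cycle rose as a body. All 21 tested genes of DNA replication and S phase (median 2.79) and all 20 of mitosis (median 3.14) passed as higher, and no library of the groups overlapped for any of them. The proliferation marker Mki67 was at 695, 919 and 760 CPM in GFP+ MPC and 49.5, 156 and 68.9 CPM in bulk MPC (3.12 ± 0.41, adjusted p = 1.55e-05). Cdc20, which activates the anaphase-promoting complex, was at 204, 159 and 166 CPM against 10.5, 26.8 and 14 CPM (3.36 ± 0.29). Kif11, a spindle motor gene, was at 252, 308 and 260 CPM against 15.8, 44.8 and 20.7 CPM (3.33 ± 0.31). In each of these genes bulk MPC replicate 2 was the highest unsorted library, and its level over the mitosis list was 1.19, with 20 of 20 members above the other 2; without it, Mki67 was at 3.74. Cyclins A2 (Ccna2, 3.48 ± 0.34) and B1 (Ccnb1, 3.41 ± 0.29), which drive entry into mitosis, and Ccne1 (3.10 ± 0.19), which drives entry into S phase, rose together with Aurkb (3.37 ± 0.41, and 3.97 without bulk MPC replicate 2), a mitotic kinase. Mcm5, a subunit of the replicative helicase, was at 148, 127 and 213 CPM against 13.7, 27.6 and 15.9 CPM (3.09 ± 0.29). Uhrf1, which maintains DNA methylation through replication, rose by 2.95 ± 0.34 and Rrm2, which makes deoxynucleotides, by 2.89 ± 0.33.

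Promoters of such genes are known for the CHR, read by the DREAM and MuvB complexes, and for E2F sites, and 3 that hold one are shown from the same RefSeq table and build, again as 250 bases before the start. Those of Cdc20, at chr4:118437344-118437593, minus strand, and Kif11, at chr19:37376132-37376381, plus strand, have the CHR (TTTGAA, or TTCAAA on the other strand) in capitals. That of Mcm5, at chr8:75109259-75109508, plus strand, has in capitals a run made of 2 overlapping E2F matches on opposite strands.
Cdc20: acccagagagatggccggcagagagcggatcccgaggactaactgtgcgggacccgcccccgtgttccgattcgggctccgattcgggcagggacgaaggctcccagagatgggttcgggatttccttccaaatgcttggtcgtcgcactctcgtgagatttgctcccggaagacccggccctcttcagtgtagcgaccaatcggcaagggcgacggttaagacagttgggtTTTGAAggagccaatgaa
Kif11: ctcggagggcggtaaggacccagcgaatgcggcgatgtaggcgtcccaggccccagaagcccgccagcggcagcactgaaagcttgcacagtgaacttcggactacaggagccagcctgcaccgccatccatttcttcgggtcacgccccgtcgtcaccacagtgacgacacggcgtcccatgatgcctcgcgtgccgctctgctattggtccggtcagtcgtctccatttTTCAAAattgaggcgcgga
Mcm5: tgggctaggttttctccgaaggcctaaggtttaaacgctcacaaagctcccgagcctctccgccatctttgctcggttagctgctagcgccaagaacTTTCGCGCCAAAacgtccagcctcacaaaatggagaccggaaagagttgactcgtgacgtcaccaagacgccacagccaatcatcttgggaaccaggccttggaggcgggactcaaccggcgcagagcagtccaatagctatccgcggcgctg
In windows of 300 bases, the CHR was in 11 of 16 mitosis promoters (68.8%), against 12.3% of the promoters of tested genes and 17.9% of all. The E2F letters searched on both strands were TTTCCCGC, TTTCGCGC, TTTGGCGC and TTTGCCGC, found in 8 of 21 S-phase promoters (38.1%) against 3.62% and 2.26%. CCAAT or its complement ATTGG, which can overlap with other sites, was in 13 of 16 mitosis promoters (81.2%) against 37.3% and 37.4%.

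Inhibitors of the cell cycle and quiescence genes went both ways, with 5 of 20 higher and 8 lower, where 32.9% of all tested genes rose and 33.7% fell. Their median was -0.23, and 0.25 with library size as the sole scaling. Cdkn1a, which halts cells that leave the cycle, was at 331, 167 and 230 CPM in GFP+ MPC and 1987, 1503 and 1807 CPM in bulk MPC (-2.86 ± 0.24). Its relative Cdkn1c was at 733, 1657 and 989 CPM against 941, 914 and 966 CPM and did not pass (0.26 ± 0.54, adjusted p = 0.688). For Cdkn1c, GFP+ MPC replicate 1 was below all unsorted libraries and replicates 2 and 3 were above them. The stress-linked growth arrest genes Gadd45a (-3.07 ± 0.16), Gadd45g (-2.04 ± 0.16) and Gadd45b (-1.93 ± 0.31) fell, and so did the retinoblastoma gene Rb1 (-1.67 ± 0.18). Its relative Rbl1 (2.52 ± 0.26), the inhibitor gene Cdkn2c (2.05 ± 0.27) and Gas1 (1.89 ± 0.23) rose.

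**Figure D2:**
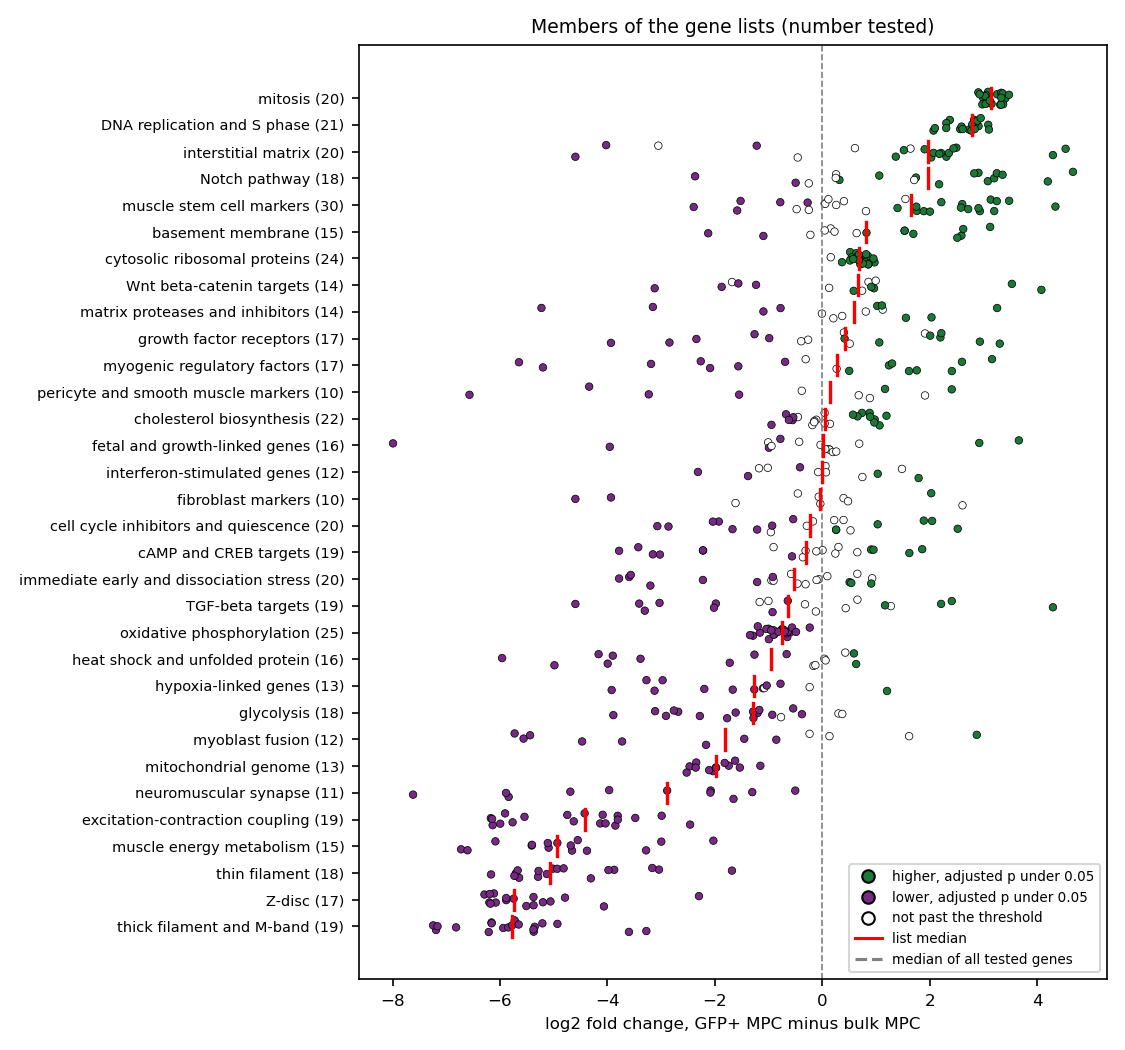
Log2 fold change of GFP+ MPC over bulk MPC for each tested member of 32 gene lists, with green for members that rose, purple for members that fell, white for the rest, a red bar at the list median and a dashed line at the median of all genes (-0.005). Mitosis genes lie together near 3 and thick filament genes near -6, and lists such as the fetal genes spread over both sides of 0.

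Notch pathway genes were mostly higher in sorted cells, with 12 of 18 tested members higher and 2 lower (median 1.96). The effector genes Heyl, at 581, 542 and 637 CPM against 41.4, 93.7 and 49.6 CPM (3.25 ± 0.65), and Hey1, at 141, 129 and 158 CPM against 14, 21.2 and 11.2 CPM (3.20 ± 0.28), rose. Both are also on the list of stem cell markers. Hey2, at 5.86, 0.503 and 3.29 CPM against 0.0929, 0.286 and 0.123 CPM, rose by 4.20 ± 0.83, by 3.46 without GFP+ MPC replicate 1 and by 4.85 without bulk MPC replicate 2. Among the modifiers, the fringe gene Lfng was at 24.3, 104 and 54.8 CPM against 1.16, 4.57 and 1.36 CPM (4.67 ± 0.59, 5.60 without bulk MPC replicate 2 and 4.05 without GFP+ MPC replicate 2), and Dtx4 rose by 3.36 ± 0.40. The ligand genes parted. Jag1 was at 41, 47.1 and 53.2 CPM against 3.58, 8.29 and 4.75 CPM (3.08 ± 0.26), and Jag2 at 56.3, 30.3 and 34.6 CPM against 233, 185 and 207 CPM (-2.37 ± 0.19). Numb, an inhibitor of Notch, fell by 0.50 ± 0.11. Hes1 (-0.25 ± 0.24), Maml2, Mfng and Rfng did not pass, Hes1 with 21.2, 50.5 and 35.2 CPM against 52.8, 33 and 41.4 CPM. Hes1 passed without GFP+ MPC replicate 2 (-0.58, adjusted p = 0.0318). The letters GTGGGAA, a core of sites of the Notch effector RBPJ, were searched on either strand. They were in 3 of 20 promoters (15%) of 15 Notch pathway genes, against 6.13% of promoters of tested genes and 6.38% of all. Heyl and Hey1 had no promoter in the set searched.

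Wnt targets were divided, with 5 of 14 tested higher and 4 lower (median 0.66), and 8 higher with library size as the sole scaling. For this list and the next 2, the shares over all tested genes were 32.9% higher and 33.7% lower. Lgr5, a receptor gene of stem cells, was at 64.9, 32.1 and 52.4 CPM in sorted and 4.65, 3.05 and 5.25 CPM in unsorted cells (3.53 ± 0.37), and the modulator gene Sfrp2 rose by 4.08 ± 0.56. The feedback gene Axin2 went the other way, at 8.7, 5.7 and 6.82 CPM against 17, 17 and 15.8 CPM (-1.23 ± 0.28, adjusted p = 0.00153). Tnfrsf19 (-1.87 ± 0.27) and Nkd1 (-1.56 ± 0.49) fell with it. Targets of TGF-beta had 4 of 19 higher and 8 lower, with a median of -0.64 that was 0.25 without bulk MPC replicate 2. Counts were 7 higher and 5 lower with library size as the sole scaling. Tgfb3, a ligand gene, was at 44.6, 57.3 and 42.8 CPM against 500, 415 and 514 CPM (-3.30 ± 0.17), and the feedback genes Pmepa1 (-3.03 ± 0.24) and Skil (-1.98 ± 0.20) fell. Fn1, the fibronectin gene, rose by 2.21 ± 0.48, and by 3.12 without bulk MPC replicate 2. For cAMP and CREB targets, 4 of 19 were higher and 7 lower (median -0.31, 0.16 with library size as the sole scaling and -0.98 without GFP+ MPC replicate 1). Among them, Nr4a1, an early response gene, was at 9.19, 7.75 and 2.47 CPM against 84.2, 81 and 101 CPM (-3.78 ± 0.42). The kinase gene Sik1 fell by 2.22 ± 0.15, whereas Rgs2 (1.62 ± 0.31) and the phosphodiesterase gene Pde10a (0.96 ± 0.19) rose.

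Growth factor receptors had 7 of 17 tested higher and 5 lower (median 0.42), against 32.9% and 33.7% of all tested genes. Met, the receptor gene for hepatocyte growth factor, was at 58.9, 111 and 84.2 CPM against 14.6, 20.3 and 19.6 CPM (2.22 ± 0.32). Ngfr, the low-affinity neurotrophin receptor gene, was at 48.8, 57 and 95.5 CPM against 2.65, 13.1 and 4.57 CPM (3.31 ± 0.49, and 4.23 without bulk MPC replicate 2), and Egfr (2.20 ± 0.37) and Lifr (2.01 ± 0.22) rose. Erbb2 (-2.85 ± 0.21) and Fgfr3 (-2.34 ± 0.23) fell. Edn3 encodes a ligand and not a receptor, although it stands on this list, and was at 96, 95.5 and 107 CPM against 47.8, 46.3 and 48.7 CPM (1.06 ± 0.13). Fetal and growth-linked genes had 2 of 16 higher and 4 lower, and 4 higher and 2 lower with library size as the sole scaling. Their median was 0.01, and -0.39 without GFP+ MPC replicate 2. The imprinted genes Mest, at 1582, 2189 and 2339 CPM against 106, 239 and 138 CPM (3.66 ± 0.37), and Plagl1 (2.93 ± 0.27) rose. Imprinted Meg3 fell by 3.96 ± 0.85, and by 4.62 without GFP+ MPC replicate 2. H19, also imprinted, was at 8591, 14176 and 10121 CPM against 20320, 16584 and 19531 CPM (-0.78 ± 0.19). Lin28a, a regulator of let-7 microRNAs, had 0 counts in GFP+ MPC and 79 in bulk MPC, at least 32.1-fold lower against a floor of 3 counts over the group.

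Matrix genes were mostly higher in sorted cells, and bulk MPC replicate 2 set the size of many of these differences. Of 15 basement membrane genes, 8 rose and 2 fell (median 0.82, and 1.91 without bulk MPC replicate 2). Only 1 fell without bulk MPC replicate 2 or 3 or GFP+ MPC replicate 1 or 3, with library size as the sole scaling, with length-scaled counts and in a fit of the 6 MPC libraries, since Col4a5 (-1.10, adjusted p = 0.0373) then did not pass. Of 20 interstitial matrix genes, 13 rose and 3 fell (median 1.97, and 2.98 with 1 lower without bulk MPC replicate 2). The count of lower genes was also 1 without GFP+ MPC replicate 1 or 2. Type IV collagen Col4a1, the scaffold of basement membranes, was at 1540, 1744 and 1871 CPM in GFP+ MPC and 94.6, 567 and 193 CPM in bulk MPC (2.59 ± 0.47, and 3.58 without that library). Laminin beta 1 (Lamb1, 2.63 ± 0.57) and Col15a1, at 1263, 1743 and 1511 CPM against 50.5, 317 and 150 CPM (3.13 ± 0.89), rose, and were at 4.02 and 3.91 without it. Lamb2, the beta chain of mature muscle and synapse, fell, at 86.2, 74.5 and 55.1 CPM against 278, 251 and 411 CPM (-2.12 ± 0.20). Lama4 was at 7.16, 19.1 and 3.76 CPM against 1.07, 30.7 and 3.09 CPM, and its value of -0.22 ± 0.88 turned to 2.28 without bulk MPC replicate 2. Nid1, at 0.64 ± 0.62, was at 2.17 (adjusted p = 0.000837) without it, and the type VI collagen gene Col6a2, at 0.61 ± 0.85, at 2.89 (adjusted p = 0.00271).

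**Figure D3:**
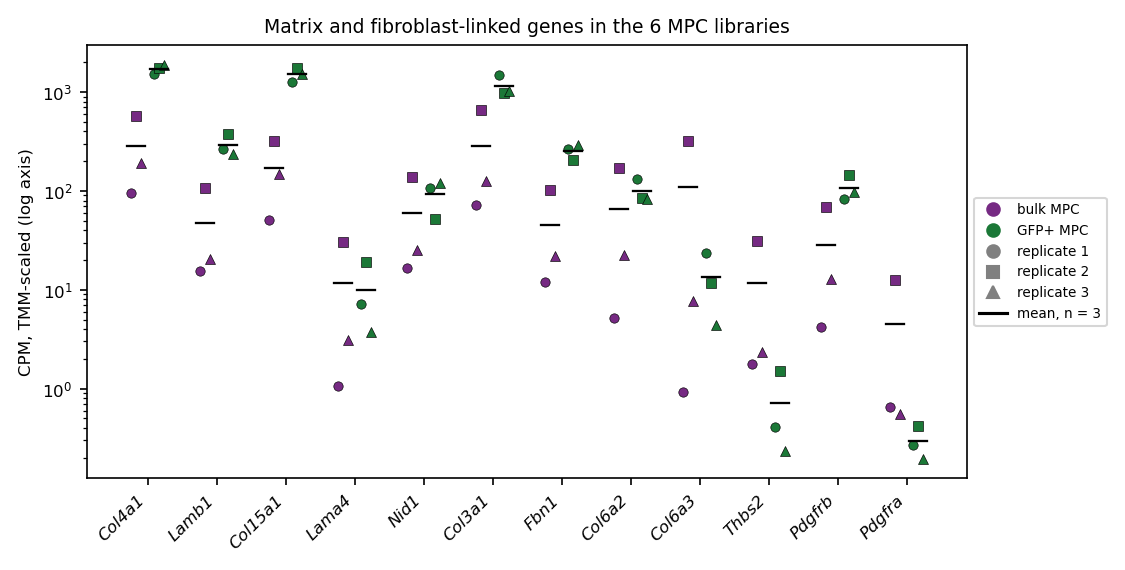
CPM on a log axis of 12 matrix and fibroblast-linked genes in the 6 MPC libraries, coloured by group, with a marker shape for each replicate number and a bar at the mean of 3. Bulk MPC replicate 2 is the highest of the unsorted libraries for all 12 genes, and for Col6a3 it stands at 321 CPM against 0.929 and 7.72 CPM.

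Among interstitial genes, elastin (Eln) was at 9.15, 13.2 and 10.5 CPM against 0.232, 0.572 and 0.618 CPM (4.53 ± 0.57). Tenascin C (Tnc), a matrix protein of regenerating muscle, was at 427, 254 and 391 CPM against 49.3, 112 and 35.4 CPM (2.44 ± 0.42, and 3.08 without bulk MPC replicate 2). Fbn1 (2.50 ± 0.65) and Col5a2 (2.31 ± 0.45) rose, at 3.91 and 3.11 without that library. Col6a6 (2.36 ± 0.90, adjusted p = 0.0364) lost its call without any 1 of 4 libraries, bulk MPC replicates 1 (adjusted p = 0.0656) and 3 (adjusted p = 0.111) and GFP+ MPC replicates 1 (adjusted p = 0.0797) and 2 (adjusted p = 0.0718). Periostin (Postn) was at 15.2, 97.3 and 17.9 CPM against 0.372, 5.81 and 0.309 CPM (4.30 ± 1.13), at 2.91 without GFP+ MPC replicate 2 and 6.96 without bulk MPC replicate 2. Thbs2 fell by 4.02 ± 1.01, and by 1.51 without bulk MPC replicate 2. Of 14 matrix proteases and inhibitors, 5 rose and 4 fell (8 rose without bulk MPC replicate 2, and 3 rose without bulk MPC replicate 1 or 3). Adamts15 rose, at 154, 195 and 214 CPM against 9.06, 32.6 and 17.1 CPM (3.26 ± 0.45, and 3.85 without bulk MPC replicate 2). Adamts5 (-3.15 ± 0.40, and -3.90 without GFP+ MPC replicate 2) and Timp2 (-1.10 ± 0.15) fell.

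Markers of other cell types were checked beside these values. Of 10 fibroblast markers tested, of 14 on the list, 1 rose and 2 fell (median -0.05), and their summed CPM was 1174 to 1780 in GFP+ MPC and 254 to 1014 in bulk MPC. Without bulk MPC replicate 2, 3 rose, none fell (0 of 10) and the median was 1.24, and the median was 0.39 with library size as the sole scaling. Without bulk MPC replicate 3, 0 rose, without GFP+ MPC replicate 2, 2 rose, and the count of lower markers was 1 without any single sorted library. Col3a1 rose (2.03 ± 0.64, and 3.57 without that library), but its adjusted p of 0.0123 was 0.0504 without bulk MPC replicate 3. Pdgfra, the receptor gene that defines fibro-adipogenic progenitors, was at 0.27, 0.419 and 0.196 CPM in GFP+ MPC and 0.651, 12.4 and 0.556 CPM in bulk MPC (-3.93 ± 1.00, adjusted p = 0.00336). Without bulk MPC replicate 2 it was at -1.03 (adjusted p = 0.0612). Dcn and Col1a1, chosen after their values were seen, were at 31.3 and 89 CPM in bulk MPC replicate 2, and no other library was above 8.46 and 2.39 CPM. Lum, Dpt, Twist2 and Tcf21 were too low to be tested. The part of fibroblast RNA in the matrix results was not tested.

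Markers of blood vessels and blood were low, and those of glia were not. Endothelial markers (6 of 10 tested, 1 higher and 3 lower) summed to 7.44 to 12.9 CPM in sorted and 14.5 to 18 CPM in unsorted cells. Their 1 rise, that of the receptor gene Tek (1.82, adjusted p = 0.0184), was lost without bulk MPC replicate 1 or 3 or sorted replicate 2 (adjusted p of 0.0651 to 0.0777), and 1 fell in place of 3 in a fit of the 6 MPC libraries or at a minimum count of 50. Macrophage and leukocyte markers (4 of 10 tested, 0 higher and 2 lower) summed to 2.78 to 4.42 CPM and 8.48 to 14.2 CPM. Schwann cell markers had 5 of 10 tested, 1 higher (Ngfr) and 3 lower, at 128 to 254 CPM and 231 to 253 CPM in sum, of which Erbb3 held most. Sox10, S100b, Cdh19 and Gfap were among those too low to be tested. Pericyte and smooth muscle markers (10 of 11 tested, 2 higher and 4 lower) had a median of 0.15 that was 1.31, with 4 higher, without bulk MPC replicate 2, and -0.76 without GFP+ MPC replicate 1. Their summed CPM was 1136 to 1504 in sorted and 6449 to 7568 in unsorted cells. Des, the muscle intermediate filament gene, is on that list and fell by 3.23 ± 0.21, as did the muscle-linked potassium channel gene Abcc9 (-4.34 ± 0.26). Tagln (2.41 ± 0.49) and Acta2 (1.17 ± 0.36) rose, Acta2 with an adjusted p of 0.0842 without GFP+ MPC replicate 3. Of 7 tenocyte markers 3 were tested, 1 higher and 1 lower (median -0.62, and -0.023 without bulk MPC replicate 2). The higher one, Mkx, lost its call, with an adjusted p of 0.0698, when GFP+ MPC replicate 1 was left out. Of 7 adipocyte markers 3 were tested, 2 higher and 1 lower (median 1.22, and 0 without a filter). Adipoq, Fabp4, Plin1 and Cidec were too low to be tested. In a fit of the 6 MPC libraries, 0 adipocyte markers passed as lower.

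Energy genes were lower in sorted cells. All 25 nuclear genes of oxidative phosphorylation fell (median -0.76), of which 16 did, and 1 rose, with library size as the sole scaling. Ndufa9, a subunit of complex I, was at 87.5, 103 and 104 CPM against 251, 238 and 232 CPM (-1.29 ± 0.13). All 13 protein genes of the mitochondrial genome fell (median -1.98), and their summed CPM was 24160 to 32010 in GFP+ MPC and 95990 to 123700 in bulk MPC. The gene of cytochrome oxidase subunit 1 (mt-Co1) was at 9447, 7723 and 6673 CPM against 34308, 29419 and 38869 CPM (-2.11 ± 0.18). Of 18 glycolysis genes, 15 fell and 0 rose (median -1.28), and 2 rose without bulk MPC replicate 2 and 1 without GFP+ MPC replicate 3. Aldoa, the muscle aldolase gene, was at 1468, 1183 and 1040 CPM against 8069, 6921 and 8695 CPM (-2.68 ± 0.17). Pgam1 (0.30 ± 0.14), Ldhb (-0.77 ± 0.42) and Slc2a3 (0.37 ± 0.62) did not pass. Ldhb passed without GFP+ MPC replicate 1 (-1.14, adjusted p = 0.0438) and Slc2a3 without bulk MPC replicate 2 (1.45, adjusted p = 0.0458). Hypoxia-linked genes had 10 of 13 lower and 1 higher (median -1.27), with adrenomedullin (Adm) at 2.48, 2.43 and 2.16 CPM against 40.3, 38 and 28.9 CPM (-3.92 ± 0.25). Car9 was at 47.3, 6.45 and 1.45 CPM against 42, 49.5 and 24.7 CPM, and its value of -1.08 ± 0.88 (adjusted p = 0.296) was -3.29 (adjusted p = 0.00269) without GFP+ MPC replicate 1.

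Cytosolic ribosomal protein genes rose by small amounts, 23 of 24, with a median of 0.69, and 0 of them reached 2-fold. The 2-fold count was made under TMM scaling alone. The median gene stood at 180%, 169% and 139% of its bulk MPC mean in GFP+ MPC replicates 1 to 3. Replicate 3 was below both other sorted libraries for 23 of the 24. Rpl3 was at 1905, 1662 and 1412 CPM against 849, 936 and 749 CPM (0.97 ± 0.12). Many of these genes have near-identical pseudogenes, so their counts are uncertain. Genes of cholesterol synthesis had 9 of 22 higher and 5 lower (median 0.05). Sqle, the squalene epoxidase gene, was at 50.9, 61.2 and 45 CPM against 27.3, 28.5 and 19 CPM (1.07 ± 0.15), and Mvd (-0.95 ± 0.21) fell. The count of lower genes was 3 without bulk MPC replicate 1 or GFP+ MPC replicate 3, and 0 with library size as the sole scaling.

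Stress genes went both ways. Of 20 immediate early and dissociation-linked genes, 3 rose and 7 fell (median -0.52), and 14 fell without GFP+ MPC replicate 1, which was above both other sorted libraries for 17 of them. Jun rose (0.51 ± 0.12), and Egr3 (-3.60 ± 0.57) and Atf3 (-3.56 ± 0.26) fell. Myc was at 99.5, 69.9 and 87.2 CPM against 47, 45 and 44.3 CPM (0.91 ± 0.16). Of 16 heat shock and unfolded protein genes, 9 fell and 2 rose (median -0.96), and 5 rose with library size as the sole scaling. The small heat shock genes of muscle led: Hspb7 was at 4.91, 9.93 and 3.88 CPM against 532, 314 and 321 CPM (-5.96 ± 0.39), and Cryab fell by 3.90 ± 0.20. Hsp90aa1 (0.63 ± 0.16) and Dnajb1 (0.59 ± 0.15) rose, while Hspa5 and Ddit3, markers of stress in the endoplasmic reticulum, stood at -0.16 ± 0.23 and -0.13 ± 0.19 without passing. Of 12 interferon-stimulated genes tested, 2 rose and 3 fell (median -0.01, and 0.46 with library size as the sole scaling). Rsad2, at 1.80, lost its call, with an adjusted p of 0.0899, when GFP+ MPC replicate 2 was left out. Ifi27, at -0.41 (adjusted p = 0.0334), did not pass without bulk MPC replicate 1, 2 or 3 or GFP+ MPC replicate 2 or 3 (adjusted p of 0.0606 to 0.135).

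Among protein-coding genes at a mean of 10 CPM or more in the higher group, with predicted genes left out, the largest rises were those of Tmc3, Lfng, Eln, Moxd1, Postn, Sh2d3c, Efhd1, Sfrp2, Mycn and Pdgfrl, between 3.96 and 5.30. Tmc3 rested on 1 library, at 15.8, 249 and 21.7 CPM against 3.02, 2.95 and 1.17 CPM, and its 5.30 ± 1.02 was 2.97 without GFP+ MPC replicate 2. Mycn, a proliferation-linked relative of Myc, was at 9.55, 33.3 and 23 CPM against 0.511, 2.48 and 1.05 CPM (4.02 ± 0.65, and 4.84 without bulk MPC replicate 2). Pdgfrl, whose product resembles a growth factor receptor, was at 9.46, 16.4 and 12.2 CPM against 0.79, 0.953 and 0.679 CPM (3.96 ± 0.35). Under the same limits, the largest falls were those of Elf3, Eef1a2, Chrne, Ctnna3, Hhatl, B4galnt3, Ctxn3, Myh4, Gabrd and Atp1b4. The epithelial factor gene Elf3 had 1 count in GFP+ MPC and 719 in bulk MPC, 877-fold lower with a 95% counting interval of 157 to 34670. Eef1a2, the translation factor gene of muscle and neurons, had 2 counts against 626, 382-fold lower (95% counting interval 105 to 3158). B4galnt3, which encodes a glycosyltransferase, was at 0.135, 0.0838 and 0.0784 CPM against 26.9, 14.7 and 12.5 CPM (-7.45 ± 0.52). Of all 15533 tested genes, 78 that fell had 0 counts in GFP+ MPC, and 9 that rose had 0 in bulk MPC. Such genes passed the filter only through groups in which they were higher, so these counts depend on the filter.

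The same sort in the myoblast culture gave fewer calls: 1966 genes rose (12.7%) and 2701 fell (17.4%). The difference between the sort effects, MPC minus myoblast, passed for 5755 genes (37.1%), 3149 higher (20.3%) and 2606 lower (16.8%). Pax7 differed between the cultures in this way by 2.50 ± 0.47 (edgeR adjusted p = 0.00131), with a sort effect of 0.64 ± 0.33 among myoblasts, at 897 ± 91.6 CPM in sorted and 575 ± 69.4 CPM in unsorted cells. Contractile genes fell in either culture, among myoblasts for 19 of 19 thick filament and 17 of 18 thin filament genes. The thick filament median was -5.78 for MPC and -6.41 for myoblasts, and the difference passed as higher for 2 and as lower for 3 of 19 members. For Myh3 it was 0.55 ± 0.40 (adjusted p = 0.301), a p that does not show the effects to be equal.

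Among proliferation genes, all 20 of mitosis passed as higher for the difference, with medians of 3.14 for MPC and 0.89 for myoblasts, and 19 of 21 S-phase genes did, with 2.79 and 1.14. Of the stem cell markers, 17 of 30 passed as higher and 3 as lower (medians 1.65 and -0.26). Of Notch pathway genes, 11 of 18 passed as higher and 2 as lower (1.96 and -0.02). Hey1 differed by 3.75 (adjusted p = 2.46e-05) and Heyl by 4.63 (adjusted p = 0.00152). Of interstitial matrix genes, 10 of 20 passed as higher and 1 as lower (1.97 and -0.34). For oxidative phosphorylation, 22 of 25 passed as lower (-0.76 and -0.09). Synapse genes passed as lower for 9 of 11: Chrna1 differed by -3.37 (adjusted p = 1.74e-05), since it stood at -0.59 without passing among myoblasts.

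**Figure D4:**
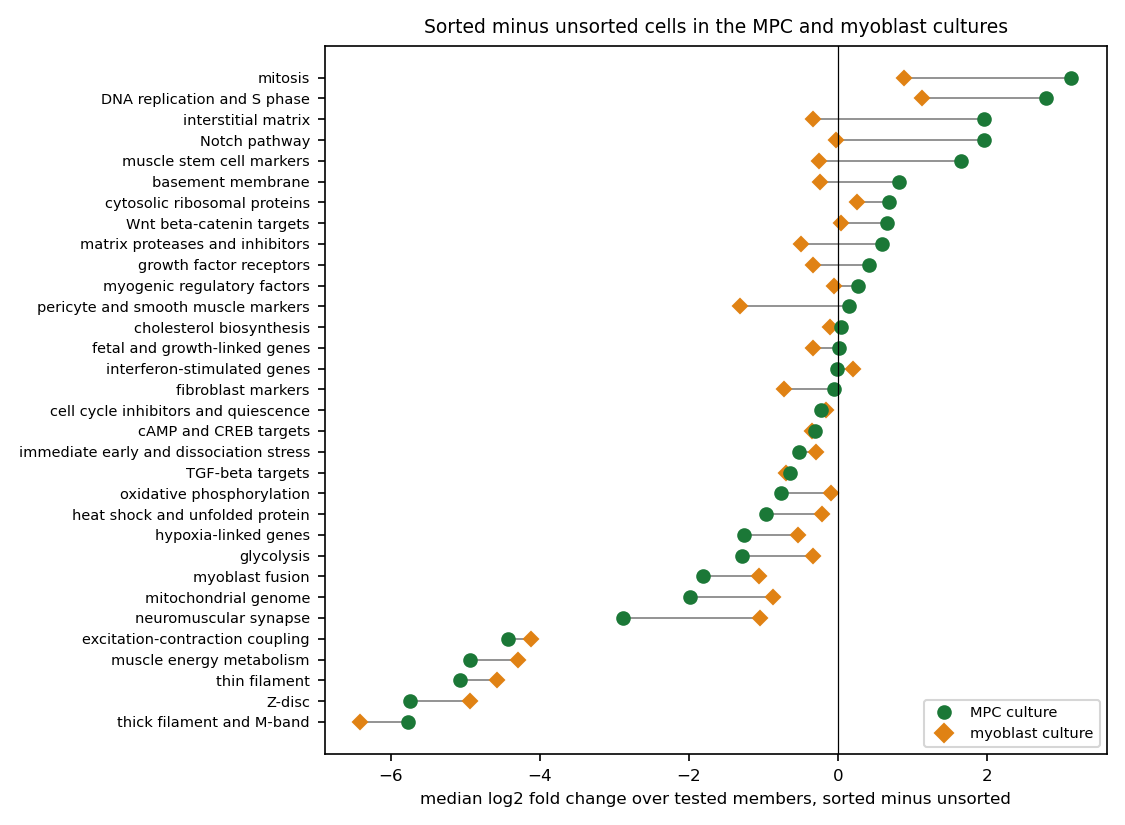
Median log2 fold change over the tested members of 32 gene lists, sorted minus unsorted cells, in the MPC culture (green circles) and the myoblast culture (orange diamonds), joined by a line. The contractile lists lie between -4 and -7 in either culture, and the mitosis list is at 3.14 in the MPC and 0.89 in the myoblast culture.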

How the data were processed

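Strand-specific mRNA libraries gave single-end reads, per the labels' protocols. The deposited files hold, per the file headers, the authors' estimated counts per transcript, TPM, and transcript length and effective length (another unit, in bases, per the file headers). Per the submitters' processing notes, processing used build GRCm39, kallisto 0.46.1 and fastp 0.20.0. Gene sums of the estimated counts were rounded to whole numbers: 120739 of 121798 transcripts matched GENCODE M21 (used for names only, as it is on another build), giving 35613 genes, and the other 1059 (0.48% to 1.05% of counts) were left out. The 15 replicated libraries were fitted together with edgeR 4.0.16 in R 4.3.3, with 5 group means, TMM scaling and a filter (minimum count 10, total 15). Besides the sorted and unsorted groups, they include 3 libraries of myoblasts at passage 4 to 5 after 3 days of differentiation. These entered the filter, the scaling and the estimate of variance, and no comparison reported here. Adjusted p values are Benjamini-Hochberg values over all 15533 tested genes. The standard error was derived from the F statistic. The test was checked on simulated counts in which few genes changed, as many up as down. That check does not cover changes as wide as those seen here. Replicate libraries differed by more than counting error (25.3 to 58.5 for chi-square over its degrees of freedom). The labels call them biological replicates.

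The gene lists came from general knowledge, and members and lists were chosen with earlier results of these data known. Named genes were 12 set genes, up to 6 list members with the largest change in the direction of most members, up to 3 in the other, members that did not pass where these were 5 or fewer, and the 10 largest rises and falls over protein-coding genes at 10 CPM or more. Any other gene was chosen after its values were seen. Alternatives were other scalings, filters, length-scaled counts from the deposited TPM and effective length, DESeq2 1.42.0, a fit of the 6 MPC libraries, a replicate block and each library left out. A fold against 0 counts uses a floor of 3 counts over the group. Counting intervals (95%, exact) cover counting error only. The high-passage library was not used here.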

Additional observations from a re-analysis of the deposited data

Results flagged for a closer look

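The sort effect of 6 set genes differed between the MPC and the myoblast culture by an edgeR test of the difference itself (MPC minus myoblast, log2 scale). Pax7 differed by 2.50 (3.14 for MPC and 0.64 for myoblasts, adjusted p = 0.00131), and Mki67 by 2.32 (3.12 and 0.80, adjusted p = 0.00472). Cdkn1a differed by -1.58, since it fell by 2.86 in the MPC and by 1.28 in the myoblast culture (adjusted p = 0.00188). Cdkn1c differed by 5.15 (adjusted p = 0.000494), as it stood at 0.26 in the MPC culture and fell by 4.89 among myoblasts, to 2.73 ± 1.68 from 83.4 ± 77.7 CPM. Axin2 differed by 1.61 (adjusted p = 0.0181), falling by 1.23 in the MPC and by 2.84 in the myoblast culture. Pdgfra differed by -3.66 (adjusted p = 0.0409), and this was -0.76 (adjusted p = 0.304) without bulk MPC replicate 2. Its call was also lost on leaving out most other single libraries, with an adjusted p of up to 0.0878. The myoblast groups were of unlike passage, 3 and 5 to 6, so passage and sort cannot be told apart there.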

How the results depend on the processing

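The total of 10350 genes that differed between GFP+ MPC and bulk MPC was 10292 with DESeq2 size factors, 10417 with the DESeq2 Wald test, 9865 with length-scaled counts, 8736 in a fit of the 6 MPC libraries alone and 9604 to 10259 with 1 library left out. With library size as the sole scaling, the difference of sort effects passed as higher for 5490 genes and as lower for 1547, and 4786 genes rose at least 2-fold. The number of genes with a larger rise than Pax7 was 516 without a filter, which tested 27083 genes, and 173 to 354 with 1 library left out. Ifi27 turned to 0.063 with library size as the sole scaling. Lama4 and Kcnj8 turned to 2.28 and 2.13 without bulk MPC replicate 2, and with 1 library left out they ranged from -1.09 to 2.28 and from -0.97 to 2.13. The cause was not tested.

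With the replicate number as a block, 10232 genes differed (5048 higher and 5184 lower), and 8088 did in the 6 MPC libraries. Pairing was not stated, but the library names carry the numbers 74, 75 and 76 for replicates 1 to 3 in both MPC groups. The labels do not say that equal numbers mean the same parental line. Deviations of same-numbered libraries correlated at 0.03 to 0.04 and those of other pairs at -0.04 to 0.01. All were near 0, and with 3 libraries centred on their group mean the values depend on each other. They cannot decide on pairing, which was not tested. Of 295 named genes, 293 kept their call under the block. At this depth, genes at a few counts in a group, such as Calcr in bulk MPC with 6 counts, have wide errors.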
